A study of Mus musculus with 4 samples.

Results

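The Ms4a genes encode a family of small membrane proteins, and 7 of them, Ms4a1, Ms4a4b, Ms4a4c, Ms4a6b, Ms4a6c, Ms4a6d and Ms4a7, were followed here across the immune cells of the mouse small intestine. They were taken by symbol from a list of names, out of 19 symbols of the family and 32285 genes in the deposited matrices. All 7 had UMIs (unique molecular identifiers, each standing for 1 captured transcript molecule), from 134 for Ms4a7 to 10990 for Ms4a4b over all cells kept. The question set by the study's labels is what a cystine-rich diet does to CD45+ cells, the white blood cells, of the small intestine.

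Single CD45+ cells were sorted from the intestinal crypts of male mice and made into 5′ libraries on the 10x platform, at a loading of 18000 cells each. The 2 control libraries came from mice on a control diet, and the 2 cystine libraries from mice whose diet the titles call cystine and the protocol calls rich in cysteine. The groups were read from the titles, because the treatment field gives the same word for all 4 samples, and age, strain and diet length are not given in the sources used here. The labels do not say whether a library is 1 mouse or a pool, so p-values reflect the spread among the 4 libraries alone, and that spread may be technical.

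MS4A proteins cross the membrane several times and sit beside receptors, whose signals they modulate. Ms4a1 encodes CD20, a surface protein of B cells that therapeutic antibodies are directed against. Ms4a4b is known from T cells, where its protein associates with the costimulatory receptor GITR, and Ms4a6b is its close relative in those cells. Ms4a4c, Ms4a6c, Ms4a6d and Ms4a7 are known mainly from myeloid cells, Ms4a7 from macrophages.

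The genes are neighbours. In the RefSeq order of protein-coding genes on chromosome 19, 21 Ms4a genes lie in 1 stretch of 22. In this order Ms4a4c is next to Ms4a4b and only Gm8369 separates Ms4a6c from Ms4a6b. Genes that do not code for a protein were left out of it. The 250 bases upstream of the start sites of these 2 neighbouring pairs are shown because members of a pair differed in which cells held their transcripts. They are from RefSeq on GRCm38.p6, all on the plus strand, written 5′ to 3′, and capitals mark runs of at least 8 aligned identical bases shared within the pair. Ms4a4b is at chr19:11443308-11443557, Ms4a4c at chr19:11407411-11407660, Ms4a6b at chr19:11518309-11518558 and Ms4a6c at chr19:11469118-11469367.
Ms4a4b: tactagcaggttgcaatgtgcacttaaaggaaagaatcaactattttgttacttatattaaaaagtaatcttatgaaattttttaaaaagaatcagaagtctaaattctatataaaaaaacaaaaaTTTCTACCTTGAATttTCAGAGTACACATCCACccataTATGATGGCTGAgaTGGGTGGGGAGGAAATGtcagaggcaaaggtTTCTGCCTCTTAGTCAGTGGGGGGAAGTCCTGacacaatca
Ms4a4c: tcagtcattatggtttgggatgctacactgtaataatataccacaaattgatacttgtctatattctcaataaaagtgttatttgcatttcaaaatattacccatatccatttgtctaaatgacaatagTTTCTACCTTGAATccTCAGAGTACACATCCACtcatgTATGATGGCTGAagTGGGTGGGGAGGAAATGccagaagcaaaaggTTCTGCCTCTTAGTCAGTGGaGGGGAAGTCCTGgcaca
Ms4a6b: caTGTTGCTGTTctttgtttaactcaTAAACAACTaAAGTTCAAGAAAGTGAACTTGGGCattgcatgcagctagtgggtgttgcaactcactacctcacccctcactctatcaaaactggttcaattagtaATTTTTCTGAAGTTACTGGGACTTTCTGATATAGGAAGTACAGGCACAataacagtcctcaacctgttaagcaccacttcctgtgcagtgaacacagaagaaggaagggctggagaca
Ms4a6c: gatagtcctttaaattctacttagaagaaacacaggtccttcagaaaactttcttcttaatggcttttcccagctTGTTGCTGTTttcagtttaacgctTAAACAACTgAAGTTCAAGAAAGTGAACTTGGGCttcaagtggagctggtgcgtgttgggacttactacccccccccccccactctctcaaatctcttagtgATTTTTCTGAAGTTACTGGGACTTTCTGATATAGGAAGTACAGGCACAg
Of the 250 bases, 185 (74.0%) were identical between Ms4a4b and Ms4a4c, in an alignment with 6 such runs. Between Ms4a6b and Ms4a6c 149 bases (59.6%) were identical, with 4 runs, the longest of 48 bases. Across the pairs, Ms4a4b against Ms4a6b gave 51.6% and Ms4a4c against Ms4a6c 52.4%, each with 0 runs. The letters AGGAAGT, an ETS core, were found on either strand 2 times in Ms4a6b, at -86 and -43 from the start, and 1 time in Ms4a6c, at -17, against 7.69% of 32851 promoters with a match. A core of the interferon-stimulated response element (ISRE) was in 2.98% of promoters and in none of the 6 promoter entries of the 5 members matched. GAGGAAGT, a PU.1 site that contains AGGAAGT, was in 2.44% and TGTGGTT, a RUNX core, in 4.4%, and neither was in those entries. The 2 not in the table were Ms4a1 and Ms4a6d.

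Close copies share stretches of sequence in which a read matches both. The longest stretch without a mismatch between the longest protein-coding transcripts was 127 bases for Ms4a4b and Ms4a4c, 96 for Ms4a6b and Ms4a6c, 81 for Ms4a6b and Ms4a6d and 44 for Ms4a6c and Ms4a6d. All other pairs of members shared at most 21 bases. Reads inside those stretches cannot be assigned to 1 gene, so low values of 1 copy in cells that hold much of another are uncertain.

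After filters and doublet removal 58725 of 68260 barcodes were kept, 13481 to 16317 per library, with 22367265 to 25742401 UMIs per library and a median of 1294 to 1713 per cell. Libraries shared 251 to 329 barcodes per pair, 1.86% to 2.26% of the smaller library. Classes were set from UMIs of other genes, and 25.3% to 33.2% of cells per library were left without a class, because they met none or more than 1. T cells needed a Cd3 UMI, with Cd8a and Cd8b1 for conventional CD8αβ T cells, Cd4 for CD4 T cells, Trdc for γδ T cells, and Cd8a, Fcer1g and a constant chain of the αβ receptor for natural αβ T cells, the CD8αα cells of the epithelium. The CD8αβ class was not purely conventional by its markers. Of its cells 11.2% to 22.9% had a Cd5 UMI and 16.6% to 35.1% had one of Fcer1g. A UMI of the αβ receptor was neither required of CD8αβ T cells nor excluded from γδ T cells. Trac, a constant chain gene of that receptor, had a UMI in 33.0% to 44.3% of CD8αβ T cells. B cells, plasmacytoid dendritic cells (pDC), conventional dendritic cells (cDC) and monocytes or macrophages were required to have UMIs of their own markers and none of Cd3 or Trdc. Monocyte markers prevailed in the last, with C1q UMIs, typical of macrophages, in 8.57% to 15.8% of its cells.

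The family divided between the lineages. Ms4a1 was held by B cells, Ms4a4b by conventional T cells, Ms4a6c, Ms4a6d and Ms4a7 by monocytes and macrophages, Ms4a4c by monocytes and B cells, and Ms4a6b by both T cells and monocytes. Levels below are UMIs of a gene per 1000000 UMIs of the class in that library (CPM) and are compared between classes for the same gene, never between genes. Where 4 values stand together they are for control 1, control 2, cystine 1 and cystine 2.

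**Figure D1:**
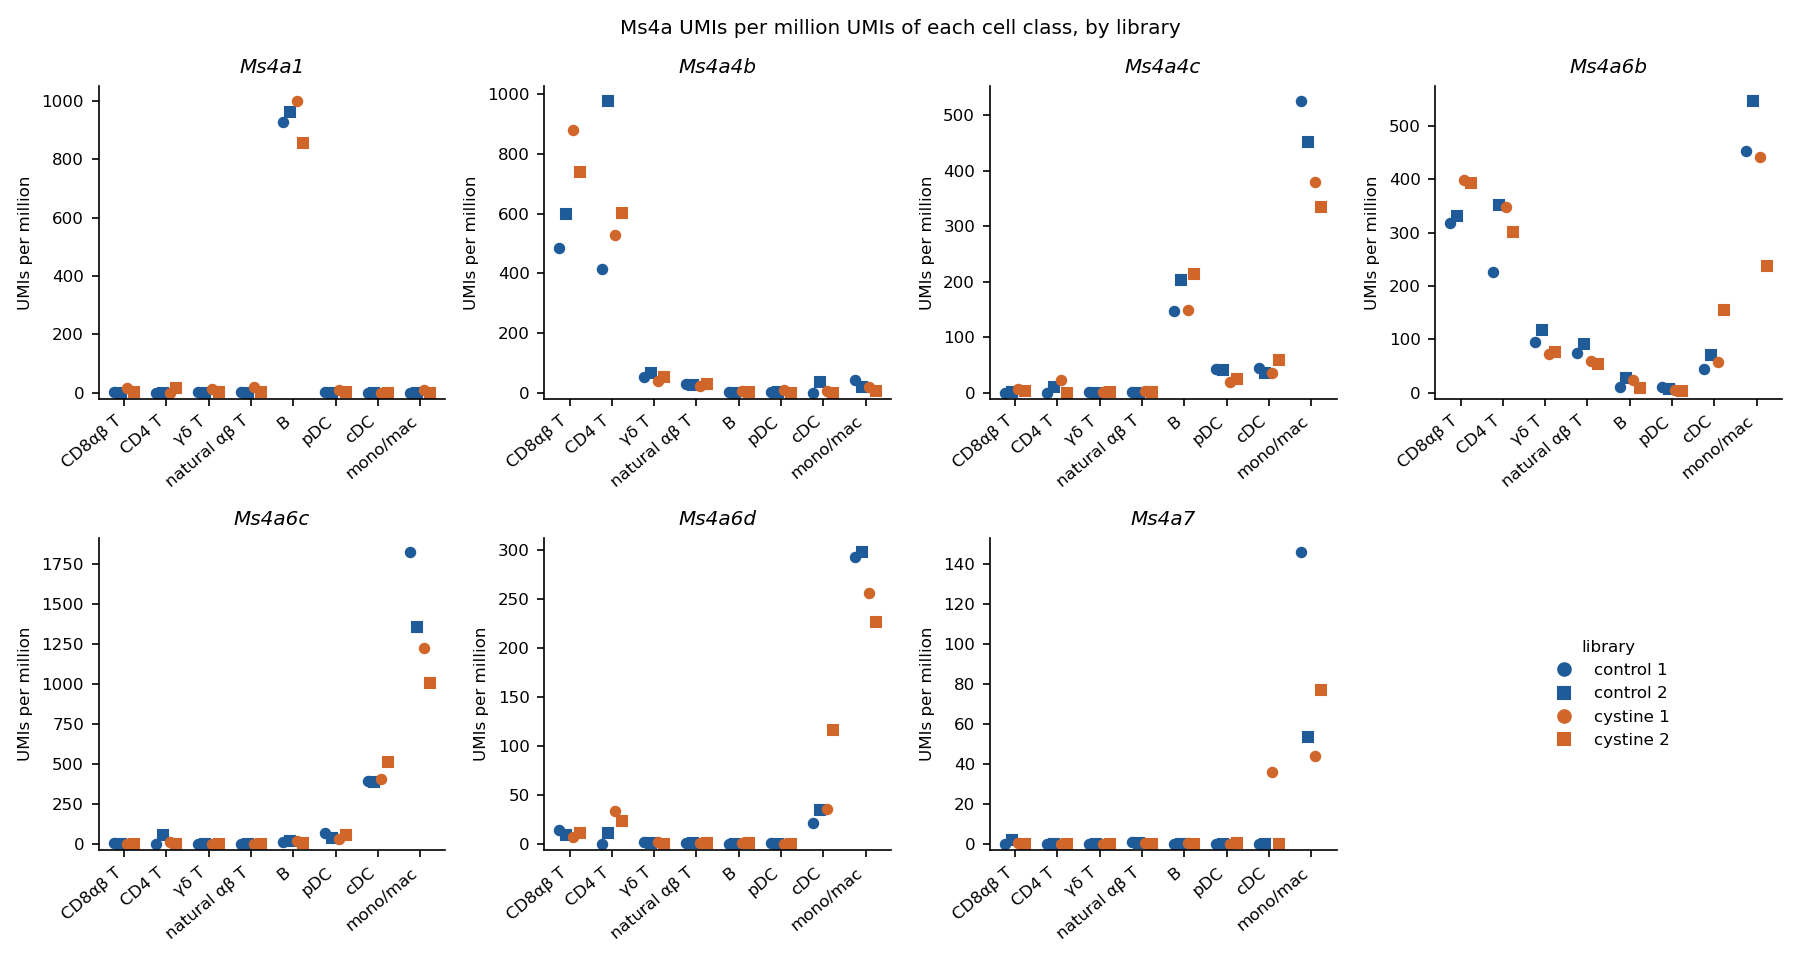
CPM of each of the 7 members (y axis) in 8 cell classes (x axis), 1 point per library, blue for control and orange for cystine. Ms4a1 stands at 855 to 1001 in B cells in all 4 libraries, Ms4a4b at 485 to 879 in CD8αβ T cells, and Ms4a6c at 1008 to 1827 in monocytes and macrophages.

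Ms4a4b, which modulates T cell activation, was a gene of the conventional T cells. Its level in CD8αβ T cells was 485, 600.1, 879 and 739 CPM. In CD4 T cells it was 415, 979, 528 and 602 CPM, and the ranges of these 2 classes overlapped. In γδ T cells it was 53.2, 67.7, 39.0 and 52.6 CPM, and in natural αβ T cells 30.0, 25.6, 20.9 and 29.1 CPM, so every conventional value lay above every γδ and natural one. B cells, which should lack it, had 0 to 4.45 CPM and pDC 0.679 to 9.02 CPM. Of all its 10990 UMIs, 37.2% were in CD8αβ T cells, 16.1% in γδ, 5.87% in natural αβ and 2.43% in CD4 T cells, and 38.0% in cells without a class.

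Ms4a6b, its relative, was more evenly spread over T cells. It reached 317, 332, 398 and 393 CPM in CD8αβ and 226, 352, 348 and 301 CPM in CD4 T cells, again overlapping. The γδ T cells had 95.1, 118, 72.8 and 75.8 CPM, and in natural αβ T cells 74.4, 91.2, 59.3 and 53.9 CPM. The γδ cells, the most numerous class, held 27.5% of its 10961 UMIs, CD8αβ cells 19.4%, and natural αβ cells 15.9%.

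Differences between classes were tested on UMIs summed per library and class with edgeR's quasi-likelihood test and Benjamini-Hochberg adjustment over all genes (called "adjusted p" below), and a gene was called at an adjusted p under 0.05. In CD8αβ against γδ T cells 4 of 7 members were higher and none lower, where 29.8% of the 9710 genes tested were called in either direction. Ms4a4b was higher by 3.77 ± 0.20 (SE) on the log2 scale (adjusted p = 2.09e-15) and Ms4a6b by 2.14 ± 0.15 (adjusted p = 2.48e-12). Ms4a6d, with 110 UMIs in both classes together, was higher by 2.90 ± 0.35 (adjusted p = 1.58e-07). Ms4a4c rested on 50 UMIs, with a log2 difference of 2.17 ± 0.73 (adjusted p = 0.0245), and was not called by DESeq2 or without either cystine library. In CD4 against γδ T cells 3 members were higher against 14.4% of genes called, Ms4a4b by 3.49 ± 0.24 (adjusted p = 1.89e-12), Ms4a6b by 1.71 ± 0.22 (adjusted p = 9.6e-07) and Ms4a6d by 3.31 ± 0.82 (adjusted p = 0.00476). Of the 57 UMIs of Ms4a6d in both classes together, 7 were in CD4 T cells, 1 of them in the control libraries. Ms4a6d was not called without either cystine library, and DESeq2 called 6 members.

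In CD8αβ against CD4 T cells edgeR called 0 of 7 members, where 4.35% of genes were called; 1 member had an unadjusted p under 0.05 and DESeq2 called 0. The difference was 0.28 ± 0.22 for Ms4a4b (adjusted p = 0.591) and 0.43 ± 0.21 for Ms4a6b (adjusted p = 0.308). Natural αβ T cells had less Ms4a4b than γδ T cells by -0.995 ± 0.20 (adjusted p = 0.00365), the 1 member called against 0.814% of genes, and DESeq2 did not call it. Ms4a6b differed there by -0.37 ± 0.14 (adjusted p = 0.715). A Fcer1g UMI was required of natural αβ T cells and not of γδ T cells. Both genes were lower in γδ T cells with such a UMI than in those without, as given below. The part of this rule in the differences was not tested. The median of all genes moved by -0.134 in CD4 against γδ and 0.119 in CD8αβ against CD4 T cells.

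The share of cells with a UMI showed the same order. To set libraries of unlike depth side by side, each cell was thinned to 1000 UMIs, leaving out 23 to 205 shallower cells of the CD8αβ class per library and 527 to 1127 of the γδ class. Ms4a4b was then seen in 29.9%, 35.8%, 56.9% and 48.6% of CD8αβ T cells, unthinned in 40.3%, 52.6%, 64.1% and 61.7%. Of γδ T cells it was seen in 4.75%, 5.55%, 3.05% and 4.56% of thinned cells, unthinned in 6.10%, 8.78%, 4.35% and 5.94%. B cells, whose median depth was 1087.5 to 1289 UMIs against 1326 to 1838 in CD8αβ T cells, gave 0% to 0.59% thinned, below both T cell classes. The 0% in control 1 and control 2 came from 172 and 221 B cells and allows, by the Clopper-Pearson interval, up to 2.12% and 1.66%. Ms4a6b was seen in 27.7%, 29.5%, 31.2% and 32.6% of thinned CD8αβ and 8.78%, 10.9%, 6.36% and 7.15% of thinned γδ T cells. The 95% Clopper-Pearson interval was 53.8% to 60.0% for Ms4a4b in CD8αβ T cells of cystine 1 and 25.7% to 34.4% in control 1; intervals cover counting error only.

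**Figure D2:**
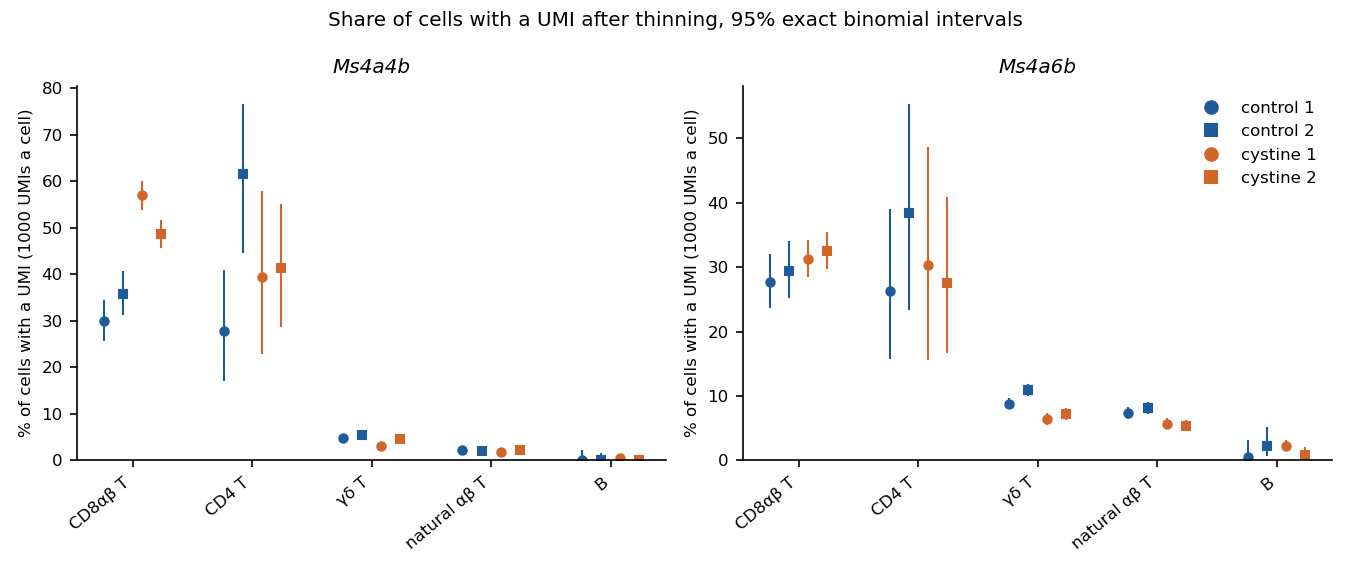
Percent of cells with a UMI of Ms4a4b (left) or Ms4a6b (right) after thinning to 1000 UMIs a cell, in 5 classes, 1 point per library with its 95% exact binomial interval. Ms4a4b lies at 29.9% to 56.9% of CD8αβ and 3.05% to 5.55% of γδ T cells.

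Cells with a UMI of Ms4a4b held Ms4a6b more often than cells without one, which is given as a description. Among thinned γδ T cells with a Ms4a4b UMI 14.1%, 23.1%, 13.2% and 24.5% also had one of Ms4a6b, against 8.52%, 10.2%, 6.15% and 6.32% of those without. In natural αβ T cells the shares were 30.2%, 25.7%, 25.9% and 15.3% with and 6.80%, 7.74%, 5.32% and 5.12% without. For CD8αβ T cells they were 31.1%, 35.5%, 34.0% and 35.2% with and 26.3%, 26.1%, 27.7% and 30.1% without, higher with Ms4a4b in each library by a smaller margin.

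Both transcripts varied inside a class with Fcer1g, the signalling chain of innate-like cells. In γδ T cells with no Fcer1g UMI, 5.87% to 13.4% of the class, Ms4a4b was at 192, 233, 257 and 284 CPM, and in those with one at 35.9, 45.5, 28.5 and 35.1 CPM. In CD8αβ T cells without a Fcer1g UMI it was at 652, 800, 992 and 820 CPM, and with one at 217, 220, 538 and 395 CPM. Ms4a6b followed the same direction in γδ T cells, with 188, 215, 204 and 218 CPM without and 83.6, 105, 66.5 and 65.0 CPM with a Fcer1g UMI. In all 4 libraries both genes were higher in cells without Fcer1g, and these subsets were chosen after their values were seen and were not tested.

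The diet comparison opened with Ms4a4b in CD8αβ T cells. Both cystine values (879 and 739 CPM) lay above both control values (485 and 600.1 CPM). The log2 fold change, cystine against control, was 0.51 ± 0.12 (adjusted p = 0.086), which did not pass the threshold. Of the 3 members tested in the class edgeR called 0, where 1.08% of genes were called; 1 member, Ms4a4b, had an unadjusted p under 0.05 and DESeq2 called 0. For Ms4a6b the fold change was 0.22 ± 0.11 (adjusted p = 0.494), with both cystine values above both control values. The class itself made up 3.57%, 3.32%, 7.53% and 8.51% of kept cells. Summed plasma cell markers in it were 56.6, 81.0, 792 and 433 CPM, and 7 summed B cell markers 82.3, 82.1, 172 and 78.3 CPM; their part in these values was not tested.

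In γδ and natural αβ T cells the fitted changes had the opposite sign. Ms4a4b in γδ T cells was at -0.47 ± 0.18 (adjusted p = 0.658) and Ms4a6b at -0.59 ± 0.15 (adjusted p = 0.275). Both control values of Ms4a6b (95.1 and 118 CPM) were above both cystine values (72.8 and 75.8 CPM), and those of Ms4a4b were too, by a margin of 53.2 against 52.6 CPM for the nearest pair. In natural αβ T cells Ms4a6b was at -0.63 ± 0.17 (adjusted p = 0.451) and Ms4a4b at -0.22 ± 0.18 (adjusted p = 0.882). By edgeR 0 of 5 members were called in γδ T cells (3 at an unadjusted p under 0.05), against 0.166% of genes, and 0 of 4 in natural αβ T cells (2 at an unadjusted p under 0.05), against 0.0638%. DESeq2 called 0 in both. Without control 1 edgeR called 3 members in γδ T cells, Ms4a1, Ms4a4b and Ms4a6b. In CD4 T cells, with 41 to 84 cells a library, 0 of 2 members were called, 0 at an unadjusted p under 0.05 and 0 by DESeq2, against 0.0% of genes; Ms4a4b was at -0.22 ± 0.39 and Ms4a6b at 0.24 ± 0.33.

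The diet difference in UMIs summed per class was itself unlike in CD8αβ and γδ T cells. The interaction of diet and class, which tests that difference, was called for 2 of 6 members, where 1.07% of genes were called. It was 0.99 ± 0.15 for Ms4a4b (adjusted p = 0.000769) and 0.82 ± 0.12 for Ms4a6b (adjusted p = 0.000436). Leaving out each library in turn gave 0.70 to 1.32 for Ms4a4b and 0.68 to 0.97 for Ms4a6b, called each time, and DESeq2 gave 0.98 and 0.81, also called. The change was thus in the gap between the classes: Ms4a4b was 9.11, 8.86, 22.5 and 14.1 times as high in CD8αβ as in γδ T cells, and Ms4a6b 3.34, 2.81, 5.47 and 5.18 times. In both genes the 2 cystine libraries had the wider gap. These are sums over a class, so a change in its mix of cells and a change in RNA per cell cannot be told apart.

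Within the CD8αβ class the diet difference was unlike in cells with and without a UMI of Gzmk, a granzyme of effector memory cells. In cells with a Gzmk UMI Ms4a4b was at 366, 484, 1016 and 841 CPM, the cystine values well above the control ones. In cells without one it was at 514, 650.2, 638 and 596 CPM, and the groups overlapped. Cells with a Gzmk UMI were 18.9%, 26.8%, 62.9% and 58.5% of the class. The subsets may thus hold other cells in the cystine libraries, and this cannot be told apart from a change of Ms4a4b per cell. With a Gzmk UMI the log2 fold change of Ms4a4b was 1.03 ± 0.16 (adjusted p = 0.00635), and 1 of 2 members was called where 1.01% of genes were. That call was lost with a stricter class rule (0.82, adjusted p = 0.0543) and without control 1 (0.84, adjusted p = 0.0623). Without a Gzmk UMI it was 0.03 ± 0.13 (adjusted p = 0.978), with 0 of 2 members called by edgeR, 0 at an unadjusted p under 0.05 and 0 by DESeq2, against 0.346% of genes.

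Ms4a6b had the same pattern at a smaller size. It was at 255, 291, 442 and 423 CPM with a Gzmk UMI, without overlap, and at 332, 349, 321 and 351 CPM without one. Its fold change was 0.58 ± 0.16 (adjusted p = 0.136) with and -0.07 ± 0.13 (adjusted p = 0.941) without. The interaction of diet with the presence of a Gzmk UMI was 1.02 ± 0.15 for Ms4a4b (adjusted p = 5.57e-06), the 1 of 3 members called where 0.636% of genes were. It was 0.65 ± 0.18 for Ms4a6b (adjusted p = 0.0958). Leaving out each library in turn gave 0.95 to 1.12 for Ms4a4b. The DESeq2 Wald test gave 1.01 for Ms4a4b (adjusted p = 0.0229) and 0.65 for Ms4a6b (adjusted p = 0.99995). These subsets were chosen after earlier values were seen.

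**Figure D3:**
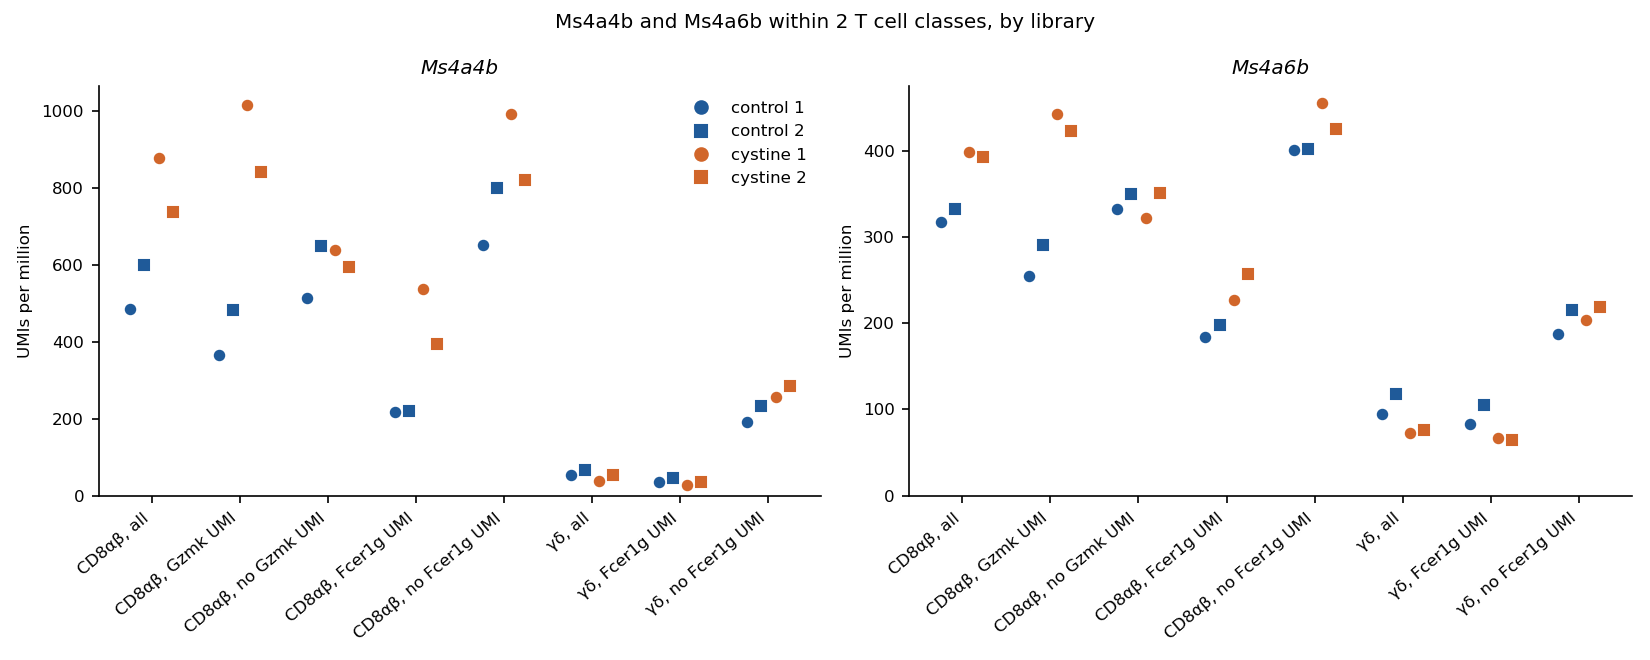
CPM (y axis) of Ms4a4b (left) and Ms4a6b (right) in CD8αβ and γδ T cells and in their cells with and without a UMI of Gzmk or Fcer1g, 1 point per library. Cystine libraries reach 1016 and 841 for Ms4a4b in CD8αβ T cells with a Gzmk UMI, against 366 and 484 in control libraries, and overlap with control in those without.

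In B cells Ms4a1 was steady. Its level was 928, 962, 1001 and 855 CPM, and a UMI of it was seen in 65.8%, 69.3%, 67.0% and 65.3% of B cells, at a median of 1087.5 to 1289 UMIs a cell. In natural αβ T cells, which should lack it, it was at 2.11, 0, 18.0 and 1.59 CPM. Of its 6597 UMIs 63.7% were in B cells and 31.5% in cells without a class. Plasma cells, 1 to 12 a library, had 424, 319, 162 and 45.1 CPM. The log2 fold change with diet in B cells was -0.05 ± 0.14 (adjusted p = 0.99997).

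Ms4a4c was the other member of B cells. It was at 147, 204, 149 and 214 CPM there and was seen in 16.9%, 23.4%, 16.9% and 25.2% of B cells. Each group had a lower and a higher library, so the groups overlapped, and the fold change was 0.03 ± 0.24 (adjusted p = 0.99997). Of its 1762 UMIs 42.8% were in B cells, 12.5% in monocytes and macrophages and 6.13% in pDC. By edgeR 0 of 4 members were called with diet in B cells, 0 at an unadjusted p under 0.05 and 0 by DESeq2, against 0.136% of genes. Ms4a4b, its neighbour with the shared upstream runs printed above, was at 0 to 4.45 CPM in the same cells.

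Against pDC, 3 members were higher and 1 lower in B cells, where 46.7% of genes were called. Ms4a1 was higher by 8.29 ± 0.56 on the log2 scale (adjusted p = 1.13e-13), with 16 UMIs in pDC, and Ms4a4c by 2.70 ± 0.25 (adjusted p = 1.24e-10). Ms4a6b was higher by 1.87 ± 0.42 (adjusted p = 0.000451), a call that was lost without cystine 1. Ms4a6c was lower in B cells by -1.60 ± 0.29 (adjusted p = 3.12e-05), a call that was lost with a filter of 800 genes a cell.

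Outside B cells Ms4a1 moved with cystine 1. Its level in CD8αβ T cells was 2.14, 0, 16.7 and 1.89 CPM, in γδ T cells at 2.34, 0.394, 12.9 and 2.06 CPM and in pDC at 1.73, 0, 11.02 and 2.71 CPM. In each of these classes cystine 1 was the highest library and the other 3 were near 0. The 7 other B cell markers, summed, were at 124, 105, 196 and 116 CPM in γδ and 118, 88.2, 187 and 102 CPM in natural αβ T cells, also highest in cystine 1. B cells were 1.83%, 2.03%, 11.1% and 5.10% of kept cells, again highest there. In γδ T cells the log2 fold change of Ms4a1 was 2.43 ± 0.79 (adjusted p = 0.505) and without cystine 1 it was 0.59. Free RNA and B cell doublets were not tested as sources.

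**Figure D4:**
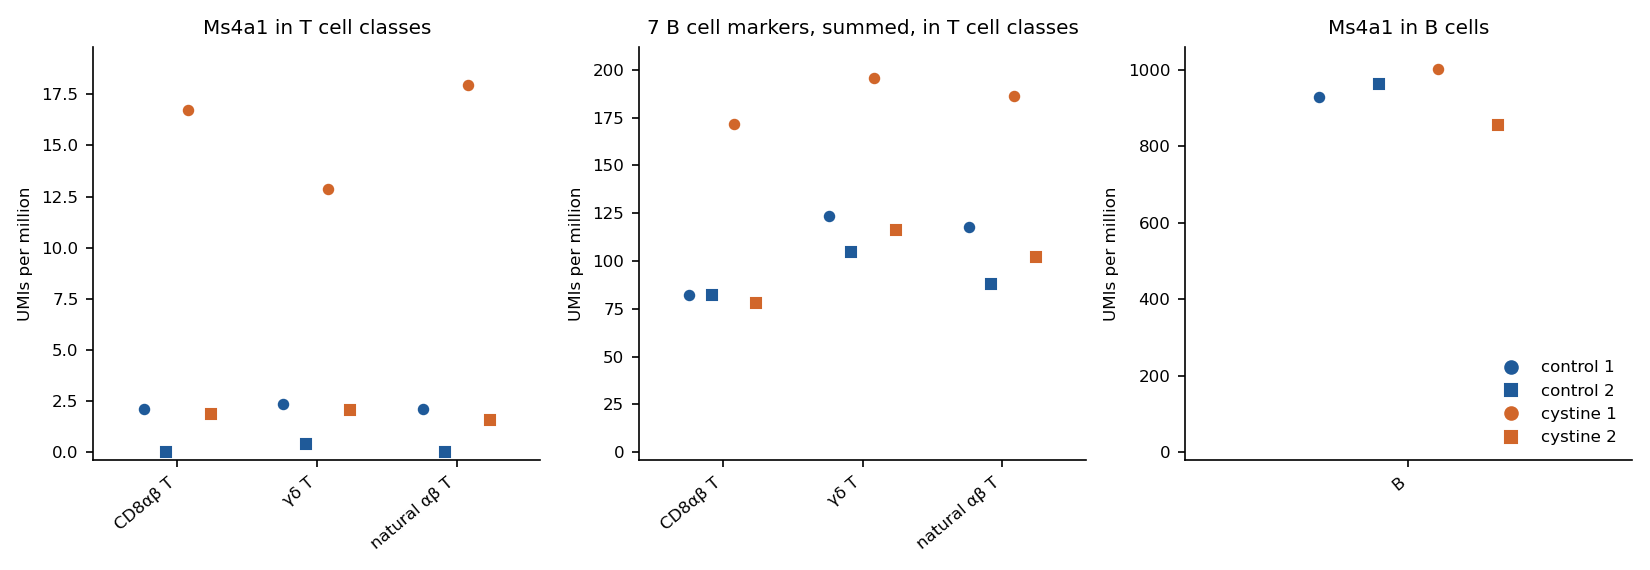
CPM (y axis) of Ms4a1 in 3 T cell classes (left), of 7 other B cell markers summed in the same classes (middle) and of Ms4a1 in B cells (right), 1 point per library. Cystine 1 is highest in each T cell class, at 12.9 to 18.0 for Ms4a1, while in B cells the 4 libraries lie at 855 to 1001.

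Sums over all kept cells mix the classes. Ms4a1 was at 27.9, 19.5, 163 and 55.2 CPM and Ms4a4c at 11.6, 9.57, 29.9 and 20.01 CPM, both highest in cystine 1 and next in cystine 2, as the B cell share was. Ms4a4b was at 85.5, 95.9, 129 and 132 CPM, with both cystine libraries above both controls, as the CD8αβ share was. The log2 fold changes were 2.17 ± 0.48 for Ms4a1 (adjusted p = 0.194), 1.20 ± 0.22 for Ms4a4c (adjusted p = 0.143) and 0.48 ± 0.13 for Ms4a4b (adjusted p = 0.281). By edgeR 0 of 7 members were called, 4 had an unadjusted p under 0.05 and DESeq2 called 1, Ms4a4c, against 0.149% of genes by edgeR. Without cystine 1 or without cystine 2 edgeR called Ms4a1 and Ms4a4c. In such sums more cells of a type and more RNA per cell cannot be told apart.

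Ms4a6c was highest in monocytes and macrophages, a class of 29, 56, 35 and 38 cells. It was at 1827, 1356, 1224 and 1008 CPM and was seen in 86.2%, 94.6%, 88.6% and 92.1% of the cells. In cDC, of which there were 7 to 33 a library, it was at 397, 386, 407 and 513 CPM, in pDC at 71.1, 36.7, 35.1 and 59.7 CPM and in B cells at 16.0, 17.4, 17.8 and 7.75 CPM. The order from monocytes over cDC and pDC to B cells held with no overlap between neighbours. The largest part of its 2114 UMIs, 42.1%, was in cells without a class, with 32.5% in monocytes and macrophages.

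Ms4a6d was highest in the same cells. It was at 292, 297, 255 and 226 CPM in monocytes and macrophages, in 44.8%, 48.2%, 51.4% and 42.1% of them. In cDC it was at 22.0, 35.1, 36.3 and 116 CPM, and in CD8αβ T cells, with 60 UMIs in all, at 15.0, 9.86, 6.92 and 11.8 CPM. B cells and pDC held 3 and 1 of its 509 UMIs.

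Ms4a4c was at 526, 452, 379 and 334 CPM in monocytes and macrophages, above every B cell value, and at 43.4, 41.5, 20.04 and 25.1 CPM in pDC. In cDC it was at 44.1, 35.1, 36.3 and 58.1 CPM, close to the pDC range. Ms4a6b was at 453, 547, 440.5 and 236 CPM in monocytes and macrophages, overlapping the CD8αβ T cells, and at 10.4, 6.38, 5.01 and 3.39 CPM in pDC. In cDC it was at 44.1, 70.2, 58.1 and 155 CPM. It was low in pDC and in B cells (9.48 to 27.3 CPM).

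Ms4a7, the macrophage member, was scarce. It had 10, 9, 5 and 15 UMIs in monocytes and macrophages, or 146, 53.5, 44.0 and 77.1 CPM. In the 4, 6, 3 and 6 cells with a C1q UMI it was at 1732, 488, 174 and 214 CPM, and in the others at 31.4, 6.59, 29.4 and 39.3 CPM. It was higher in the cells with a C1q UMI in all 4 libraries, on 3 to 6 cells each. Of its 134 UMIs 29.1% were in the class and 50.0% in cells without a class.

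Monocytes and macrophages had more of 5 members than pDC, where 32.0% of genes were called, and none was lower. Ms4a6c was higher by 4.55 ± 0.17 (adjusted p = 7.04e-19), Ms4a4c by 3.68 ± 0.30 (adjusted p = 2.53e-11) and Ms4a6b by 6.04 ± 0.32 (adjusted p = 7.83e-16). Ms4a6d and Ms4a7 were called too, on 1 pDC UMI each. Against B cells 5 members were higher and 1, Ms4a1, lower, where 37.5% of genes were called. Ms4a6c was higher by 6.15 ± 0.21 (adjusted p = 4.4e-20) and Ms4a6b by 4.17 ± 0.26 (adjusted p = 4.13e-14). Ms4a4c was higher by 0.98 ± 0.23 (adjusted p = 0.00121), and DESeq2 did not call it.

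Against CD8αβ T cells 4 members were higher and Ms4a4b was lower, by -5.26 ± 0.43 (adjusted p = 1.22e-11), where 38.8% of genes were called. Ms4a6c was higher by 8.67 ± 0.24 (adjusted p = 1.22e-22), Ms4a4c by 6.82 ± 0.39 (adjusted p = 3.3e-15) and Ms4a6d by 4.72 ± 0.29 (adjusted p = 2.22e-14). Ms4a6b was not called, at 0.23 ± 0.19 (adjusted p = 0.359). Against cDC, which did not reach 20 cells in the control libraries, 5 members were higher where 11.2% of genes were called, among them Ms4a6c by 1.58 ± 0.20 (adjusted p = 4.41e-07), Ms4a4c by 3.20 ± 0.48 (adjusted p = 7.8e-06) and Ms4a6b by 2.14 ± 0.35 (adjusted p = 3.28e-05). The call of Ms4a7 (adjusted p = 0.0402) was lost without control 1, control 2 or cystine 2, with a filter of 800 genes a cell and by DESeq2. In pDC against cDC 4 members were lower where 19.7% of genes were called, Ms4a6c by -3.07 ± 0.27 (adjusted p = 3.22e-11) and Ms4a6b by -3.97 ± 0.59 (adjusted p = 2.07e-06). The calls of Ms4a6d and Ms4a7 there rested on 1 UMI each in pDC, and that of Ms4a7 was lost without cystine 1. The median of all genes moved by -0.257, -0.259 and -0.266 in monocytes and macrophages against pDC, B and CD8αβ T cells, and by 0.114 and 0.287 in the 2 comparisons with cDC.

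No member was called with diet in the myeloid classes. In monocytes and macrophages edgeR called 0 of 5 members, 0 had an unadjusted p under 0.05 and DESeq2 called 0, against 0.0% of 2187 genes. Ms4a6c was at -0.43 ± 0.22 (adjusted p = 0.647), with both cystine values below both control values, and Ms4a4c at -0.37 ± 0.30 (adjusted p = 0.785), also without overlap. Ms4a6b was at -0.55 ± 0.34 (adjusted p = 0.719), and without cystine 1 it was at -0.96 (adjusted p = 0.0448). In cystine 2 the 9 epithelial markers, 7 of them detected, summed to 34833 CPM in this class against 102, 268 and 317 CPM in the other libraries, and the class's own markers to 14265 CPM against 17907, 20190 and 18500. Without cystine 2 the numbers of members called against pDC, B and CD8αβ T cells were 5, 6 and 5, as with it. In pDC edgeR called 0 of 2 members, 1 had an unadjusted p under 0.05 and DESeq2 called 0, against 0.191% of genes. There Ms4a4c was at -0.88 ± 0.31 (adjusted p = 0.707), without overlap, and Ms4a6c at -0.12 ± 0.28 (adjusted p = 0.996).

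**Figure D5:**
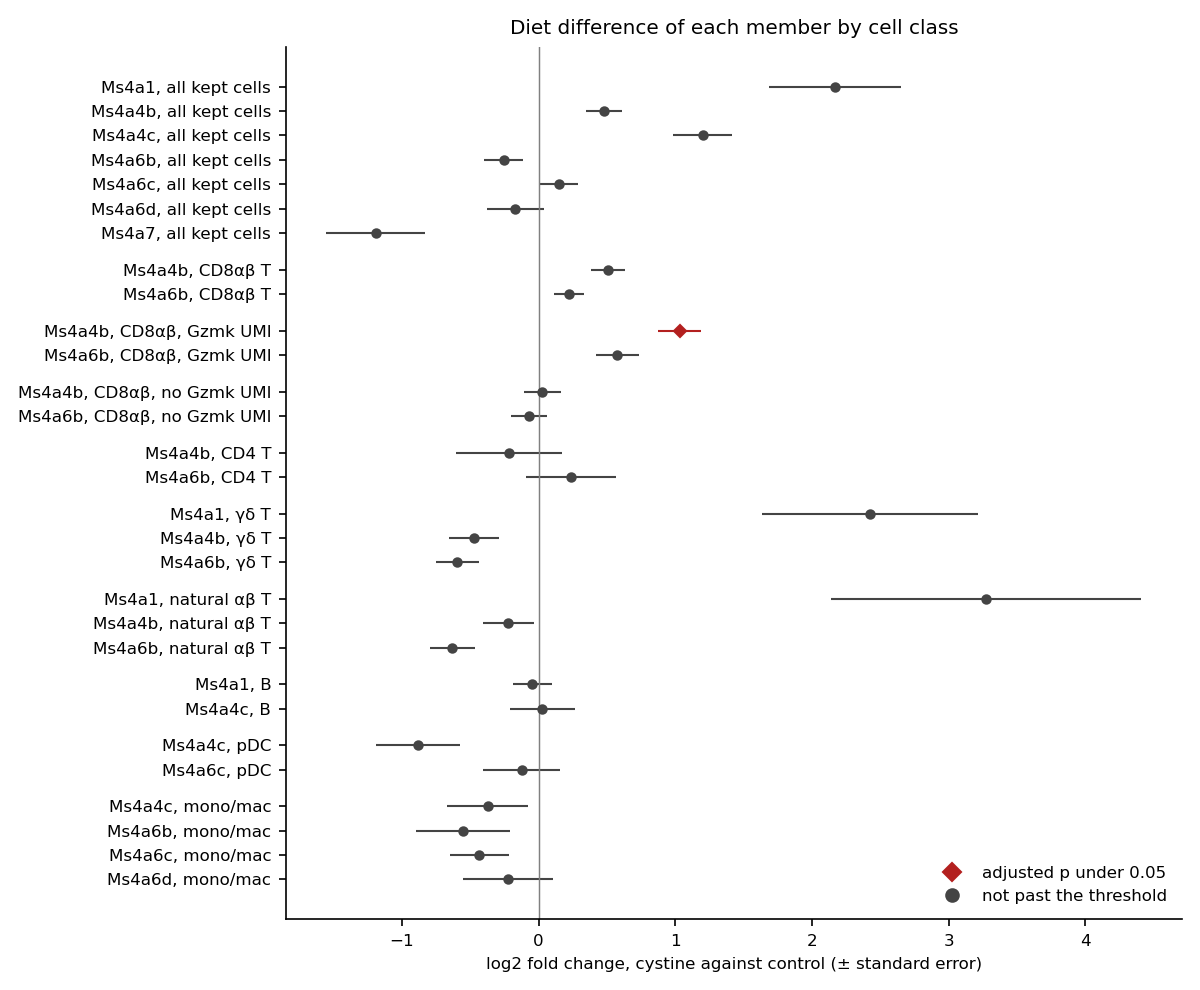
Log2 fold change, cystine against control (x axis), with its standard error, for each member with at least 100 UMIs in a class (y axis). The red diamond, Ms4a4b in CD8αβ T cells with a Gzmk UMI at 1.03, is the 1 value with an adjusted p under 0.05.

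The genes most alike to each member in pattern, not in height of level, were taken among 8233 genes. The measure was Pearson's r of log2(CPM + 1) over 32 pairs of class and library. The points share libraries and classes, so r is a description. For Ms4a1 they were Vpreb3 (r = 0.954), Fcer2a (r = 0.953) and Bend5 (r = 0.937), and for Ms4a4b Sh2d1a, which encodes the T cell adaptor SAP (r = 0.887), Ntrk3 (r = 0.870) and Ppp1r18 (r = 0.863). For Ms4a4c they were BC028528 (r = 0.946), Gm15987 (r = 0.926) and the inhibitory Fc receptor gene Fcgr2b (r = 0.920), and for Ms4a6b Aprt (r = 0.881), Smpdl3a (r = 0.880) and Stk38 (r = 0.843). For Ms4a6c they were Ifitm3 (r = 0.939), Il13ra1 (r = 0.914) and Oasl2 (r = 0.912), and for Ms4a6d Fam49a (r = 0.883), Mcub (r = 0.869) and Hacd4 (r = 0.847). For Ms4a7 they were Plxna4os1 (r = 0.940), the complement gene Cfb (r = 0.940) and Csf1r, which encodes the receptor of macrophage growth factor (r = 0.926). No member was among another's nearest 3.

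Other genes of the family and its surroundings were counted from 3 lists. Of 14 relatives (the other Ms4a genes, Tmem176a and Tmem176b), 4 were tested between classes, and all 4 were higher in monocytes and macrophages than in CD8αβ T cells, Ms4a4a by 8.79 and Ms4a8a by 7.68 among them (list median 6.39, all genes -0.27), where 38.8% of all genes were called in either direction. Ms4a4a, whose protein acts with the fungal receptor Dectin-1, was at 409, 428, 449 and 314 CPM in monocytes and macrophages. Ms4a8a had 59 of its 547 UMIs in that class and 72.4% in cells without a class. The part of the epithelial markers of cystine 2, given above for the same class, in the values of these relatives was not tested. In CD8αβ against γδ T cells 2 of the 4 relatives were higher (list median 1.11, all genes -0.01), Tmem176b by 1.91 and Tmem176a by 1.43. In that comparison 29.8% of all genes were called, 1432 of them higher and 1460 lower. Of 10 genes of proteins that MS4A proteins act with, 2 of 7 tested were lower there (list median 0.04), Fcer1g by -2.23 and Cd79b by -0.68, a share near that of all genes called. Of 28 interferon-stimulated genes 15 of 26 tested were higher and 0 lower (list median 0.66), led by Ifit3 at 2.83 and Ifit1 at 2.51.

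With diet few genes of the lists were called. In CD8αβ T cells where 1.08% of all genes were called, 1 of 2 relatives tested was lower, Tmem176b by -3.09 ± 0.51 (adjusted p = 0.0102), beside a median of 0.00 over all genes. Of 4 partner genes 1 was lower, Fcer1g by -0.86 ± 0.16 (adjusted p = 0.0224), the gene whose UMIs went with less Ms4a4b above. The 21 interferon-stimulated genes tested there had a median of 0.28. In CD8αβ T cells with a Gzmk UMI Fcer1g was lower by -1.80 ± 0.17, 1 of 3 partner genes tested, where 1.01% of all genes were called. In the interaction of diet with class, CD8αβ against γδ T cells, Tmem176b was at -2.67 and Fcer1g at -1.04.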

How the data were processed

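The values the authors deposited are raw UMI counts of 4 libraries. Software version 7.0.1 stands in the matrix headers, whereas GRCm39, Seurat 4.0.1 and Cell Ranger 3.1.0 stand in the submitters' processing notes. Barcodes were dropped below 300 genes or above 10% mitochondrial UMIs, and the highest Scrublet scores (scanpy 1.11.5) were removed as doublets at 0.8% per 1000 barcodes, 9362 barcodes in all. Cells were put in classes by marker UMIs, with no Ms4a gene, and cells that met 2 classes were left without one. The members and all lists were chosen with earlier results of these data known.

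Counts were summed per library and class and tested with edgeR 4.0.16 (R 4.3.3, filterByExpr, TMM), diet per class, and class with the library as a term. Classes with at least 20 cells in every library entered, so conventional dendritic cells came in only through a second model. Called means a Benjamini-Hochberg adjusted p under 0.05 over all genes tested. CPM is UMIs per 1000000 of the class. The fits were checked on simulated data with a fixed spread and planted changes larger than the diet changes of Ms4a4b and Ms4a6b. This check does not show how well changes of their size are found. With 2 against 2 libraries an exact permutation test cannot go below p = 0.333, so none is given.

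The genes named were all 7 members, the 3 genes most alike to each member among those with at least 20 CPM in a class, leaving out immunoglobulin and T cell receptor genes, and up to 4 called genes in each direction from each of the 3 lists. The Gzmk, Fcer1g and C1q subsets and the comparisons of monocytes and macrophages with pDC, B and CD8αβ T cells were added after values were seen. Alternatives were a stricter cell filter (800 genes, 5% mitochondrial UMIs), no doublet removal, a stricter class rule, a Cd3 or Trdc UMI allowed outside T cells, DESeq2 size factors, no filter on low counts, no immunoglobulin or T cell receptor genes, a replicate block, DESeq2 1.42.0, thinning to 1000 UMIs and leaving out each library. The longest shared stretches of transcripts are from GENCODE, and upstream sequences and gene order from RefSeq, on a build other than that of the counts.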

Additional observations from a re-analysis of the deposited data

Results flagged for a closer look

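The diet effect on summed UMIs differed between 2 groups of cells by a test of the difference itself in 3 results. In such sums a change in the mix of cells and a change per cell cannot be told apart. Between CD8αβ and γδ T cells the difference of the log2 diet effects was 0.99 for Ms4a4b and 0.82 for Ms4a6b. Between CD8αβ T cells with and without a Gzmk UMI it was 1.02 for Ms4a4b.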

How the results depend on the processing

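Leaving out 1 of 2 libraries leaves an arm with 1 sample, which is assumed to vary like the other arm. Over the alternatives, the log2 values of members with at least 100 UMIs kept their direction and their side of the threshold in 321 of 362 cases for diet, 388 of 393 for class and 20 of 20 for the interactions; the cause was not tested where they did not. The numbers of members called with diet over all kept cells were 1 with DESeq2 and 0 to 2 without each library. In CD8αβ T cells 2 were called with no low count filter and 0 without each library. In γδ T cells it was 2 with no low count filter and 0 to 3 without each library. In natural αβ T cells it was 0 to 1 and in monocytes and macrophages 0 to 1 without each library. In CD8αβ T cells with a Gzmk UMI it was 0 with the stricter class rule, 2 with no low count filter and 0 to 1 without each library, and in those without a Gzmk UMI 1 with no low count filter. DESeq2 called 6 members in CD4 against γδ T cells and 0 in natural αβ against γδ T cells, where the stricter class rule gave 2. Thinning moved the mean share of CD8αβ T cells with a Ms4a4b UMI to 32.9% (control) and 52.8% (cystine) and of γδ T cells to 5.15% and 3.805%, and for Ms4a6b to 28.6%, 31.9%, 9.84% and 6.76%.

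With the replicate number as a block, 2 members were called over all kept cells (Ms4a1 at 1.99 and Ms4a4c at 1.17), 1 in CD8αβ T cells (Ms4a4b at 0.51), 2 in γδ T cells (Ms4a1 and Ms4a6b), 1 in natural αβ T cells (Ms4a1) and 2 in CD8αβ T cells with a Gzmk UMI (Ms4a4b and Ms4a6b). Same-numbered libraries are not said to share a source, and the correlation of their deviations was -0.126 to 0.112. Crossing the replicate block in natural αβ T cells, where it was -0.126, called 0 members.

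Directions turned only in values that passed no threshold. Without each library in turn, diet gave -0.746 to 0.482 for Ms4a4b and -0.0793 to 0.55 for Ms4a6b in CD4 T cells, -0.101 to 0.0373 for Ms4a1 and -0.28 to 0.33 for Ms4a4c in B cells, -0.64 to 0.40 for Ms4a6c in pDC and -0.17 to 0.23 for Ms4a4b in CD8αβ T cells without a Gzmk UMI. Ms4a6b in monocytes and macrophages against CD8αβ T cells gave -0.0203 to 0.458. With no doublet removal diet gave 0.0622 for Ms4a4b in natural αβ T cells, -0.0354 for Ms4a4c in B cells, 0.0108 for Ms4a6c in pDC and -0.0297 for Ms4a4b in CD8αβ T cells without a Gzmk UMI. The 800-gene filter gave -0.0888 for Ms4a4c in B cells and -0.15 for Ms4a4b in the latter, no low count filter 0.0075 for Ms4a1 in B cells, and the stricter class rule 0.0352 for Ms4a6b without a Gzmk UMI.

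The number of all genes called with diet depended on the settings: over all kept cells 21 became 11 to 403 (0 to 894 without each library), in CD8αβ 92 became 45 to 334 (13 to 101), in CD4 0 became 0 to 27 (0 to 60), in γδ 19 became 19 to 272 (31 to 353) and in natural αβ T cells 7 became 2 to 74 (0 to 105). In B cells 9 became 0 to 105 (25 to 79), in pDC 13 became 2 to 39 (13 to 41), in monocytes and macrophages 0 became 0 to 157 (0 to 319), and in CD8αβ T cells with and without a Gzmk UMI 70 became 25 to 214 (26 to 95) and 24 became 14 to 97 (57 to 85). DESeq2 called 51 genes against 117 in the interaction with class and 12 against 48 in that with Gzmk. Between classes, 2892 in CD8αβ against γδ T cells became 1835 to 3122, 79 in natural αβ against γδ T cells 28 to 189, and 422 in CD8αβ against CD4 T cells 213 to 343 without each library. CD4 T cells were not fitted under the stricter class rule. Monocytes and macrophages, with 29 to 56 cells a library, and the 134 UMIs of Ms4a7 limit what depth can show.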
